A study of Caenorhabditis elegans with 2 samples.

Results

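The hedgehog-related genes of Caenorhabditis elegans comprise the warthog (wrt), groundhog (grd) and ground-like (grl) subfamilies with hog-1 and qua-1. All protein-coding genes of the Ensembl annotation whose symbol is wrt, grd or grl with a number, and those last 2 genes, gave 59 of 19985 protein-coding genes, namely 10 wrt, 16 grd, 31 grl, hog-1 and qua-1. Binding of ELT-1, the GATA-type zinc finger factor that specifies the embryonic epidermis, was measured by ChIP-seq in 1 group with 2 biological replicates. Each replicate was made of whole hermaphrodite embryos of mixed stages from strain OP354, with the genotype unc-119(tm4063) III; wgIs354, in which an integrated transgene makes ELT-1 with GFP and FLAG at its C terminus. The sample descriptions state that an antibody against GFP was used, whereas the antibody field names elt-1. Embryos were pooled over all their tissues, so a summit could not be placed in a cell type, and the tagged protein came from a transgene.

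The nematode has no canonical Hedgehog ligand. Its hedgehog-related proteins are secreted proteins with a Wart, Ground, Ground-like or other N-terminal domain, and some of them carry the Hog domain, the self-cleaving part that Hedgehog proteins also have. Many of these genes are expressed in epidermis, seam cells and glia, and members act in moulting, in the cuticle and in the shaping of the apical extracellular matrix. The worm also has an enlarged family of patched-related membrane proteins, the counterparts of the Hedgehog receptor Patched.

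For each gene, peak summits were counted from 1000 bp upstream to 200 bp downstream of any annotated transcript 5′ end, here called the promoter window. Only summits in the list thresholded by the irreproducible discovery rate (IDR) were taken as called, and the relaxed lists, which hold peaks and background, were used to show weaker signal. The IDR list held 1400 peaks with a signal of 27.8 to 823 and a median of 39.4. The pooled relaxed list held 30000 peaks with a median of 7.90, and the relaxed lists of replicates 1 and 2 held 30000 and 26001 peaks with medians of 5.44 and 3.61. Signal is the value the submitters' peak caller gave each peak, it has no stated scale between lists, and it is ranked here only within a list, with rank 1 the strongest. The summit at elt-1 itself ranked 1 in all 4 lists. Depth was unknown.

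An IDR summit lay in the promoter windows of 4 hedgehog-related genes, wrt-10, grl-10, wrt-2 and grl-7. Genomic sequence about these summits is shown because it is where binding was called in the family, and sequence about 2 IDR summits in introns of wrt-6 and grl-15 is shown because these genes had no IDR summit in their windows. The pooled summits of wrt-5 and grl-31, which were not in the IDR list, are added for comparison. Each stretch is on the strand of its gene, 5′ to 3′, on build ce11 (WBcel235). Stretches other than that of wrt-10 run over 151 bases with the summit after the first 75, and the 30 bases of wrt-10 lie in its 5′ UTR and start 6 bases downstream of the summit. Capitals mark the core sequences that GATA factors recognise, searched on either strand as AGATAA, as the related AGATAG, as TGATAA and as the related TGATAG. The reverse complement of AGATAA reads TTATCT in the gene strand.
wrt-10, chrII:7534499-7534528, minus strand: ctccccgcattcTTATCTatccccatcgtc
grl-10, chrV:7774230-7774380, plus strand: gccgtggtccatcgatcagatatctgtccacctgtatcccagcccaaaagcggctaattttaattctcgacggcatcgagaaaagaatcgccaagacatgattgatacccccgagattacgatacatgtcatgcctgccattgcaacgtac
wrt-2, chrX:3094395-3094545, minus strand: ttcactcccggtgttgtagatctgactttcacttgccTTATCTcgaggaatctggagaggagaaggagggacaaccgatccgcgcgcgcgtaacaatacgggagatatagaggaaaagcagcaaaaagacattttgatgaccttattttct
grl-7, chrV:11347882-11348032, minus strand: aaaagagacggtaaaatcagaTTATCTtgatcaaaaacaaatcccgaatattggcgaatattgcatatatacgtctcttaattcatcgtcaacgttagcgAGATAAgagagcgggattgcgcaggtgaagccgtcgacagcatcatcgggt
wrt-6 intron, chrX:3481056-3481206, plus strand: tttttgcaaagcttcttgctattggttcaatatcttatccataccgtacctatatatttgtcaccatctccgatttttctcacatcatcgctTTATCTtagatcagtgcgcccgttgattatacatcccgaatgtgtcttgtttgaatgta
grl-15 intron, chrIII:12234103-12234253, minus strand: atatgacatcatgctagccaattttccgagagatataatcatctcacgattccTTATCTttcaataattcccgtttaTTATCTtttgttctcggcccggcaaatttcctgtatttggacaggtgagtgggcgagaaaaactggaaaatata
wrt-5, chrIV:4052400-4052550, minus strand: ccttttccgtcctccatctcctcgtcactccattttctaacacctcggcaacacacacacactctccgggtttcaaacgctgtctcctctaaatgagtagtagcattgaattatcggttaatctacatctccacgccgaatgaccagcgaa
grl-31, chrV:3558317-3558467, minus strand: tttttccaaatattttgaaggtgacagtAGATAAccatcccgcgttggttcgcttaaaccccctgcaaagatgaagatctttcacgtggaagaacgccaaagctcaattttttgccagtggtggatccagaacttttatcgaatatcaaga
The stretches of wrt-10, wrt-2 and the wrt-6 intron each held 1 AGATAA site, those of grl-7 and the grl-15 intron held 2, and that of grl-31 held 1. The stretches of grl-10 and wrt-5 held no site of any of the 4 forms. A match of letters is a description and does not show that the site was bound.

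Few of the hedgehog-related genes had called binding in their promoter windows. Of 59 hedgehog-related genes 4 had an IDR summit in the window (6.78%), against 718 of 19926 other protein-coding genes (3.6%). The 4 were 2 of 10 wrt genes (20%) and 2 of 31 grl genes (6.45%), while 0 of 16 grd genes and neither hog-1 nor qua-1 had one. Among the genes with an IDR summit the signal ran from 30.7 to 63.4 with a median of 49.1 in the 4 hedgehog-related genes, and from 27.8 to 823 with a median of 38.9 in the 718 other genes. No test was made of any of these differences, since the design holds 1 group and genes are not replicates. The difference in share rested on few genes.

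The replicates were also ranked on their own, with the 1400 strongest relaxed peaks of each taken in place of the IDR list. In replicate 1 a summit of this rank lay in the windows of 3 hedgehog-related genes (5.08%), wrt-10, wrt-2 and grl-10, against 3.58% of other genes. In replicate 2 all 4 genes were found again (6.78%), against 3.5% of other genes. grl-7 was the gene missed in replicate 1, where its summit ranked 1798.

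**Figure D1:**
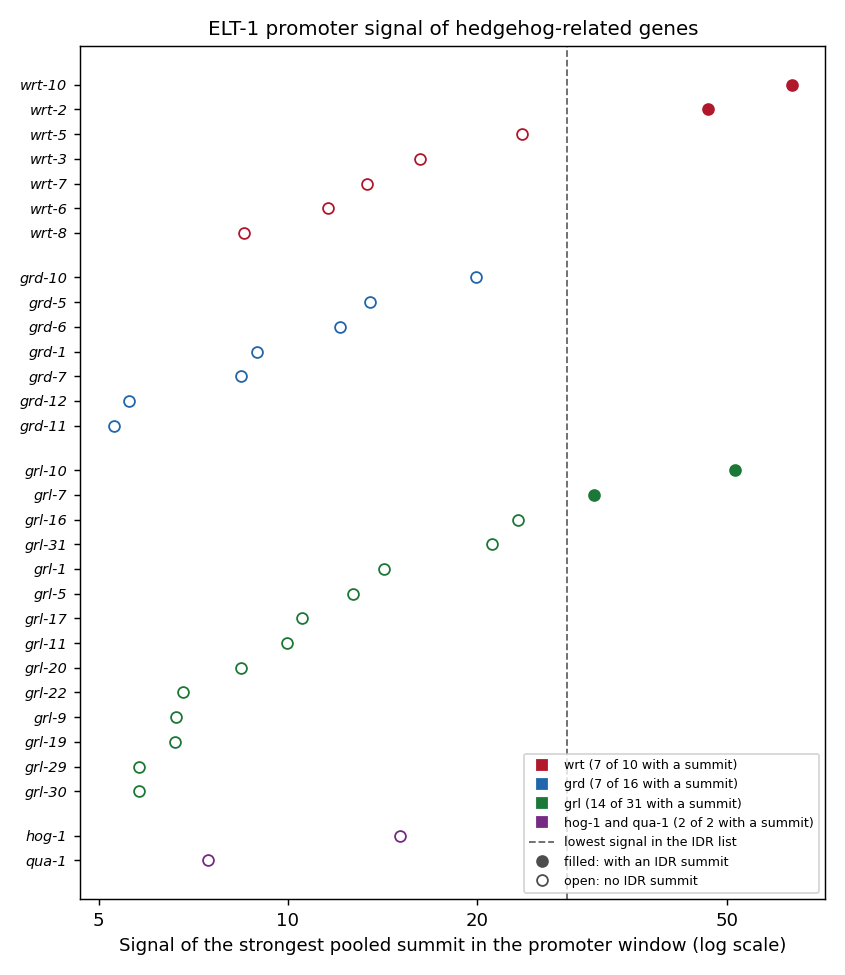
Signal of the strongest pooled relaxed summit in the promoter window (horizontal log axis, peak caller's value) for the 30 hedgehog-related genes that had one, by subfamily, with filled points for genes in the IDR list and a dashed line at its lowest signal of 27.8. The 4 filled points, wrt-10, wrt-2, grl-10 and grl-7, lie between 30.7 and 63.4, and the open points reach no further than wrt-5 at 23.6. Each of the 4 had the same signal and rank in the IDR and pooled lists. The filled points therefore lie above the line by construction.

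wrt-10 (WBGene00006956, chromosome II, 7533262 to 7534563, minus strand) had the strongest summit of the family. Its pooled signal was 63.4, rank 240 of 1400, with the summit at 7534534, 29 bp downstream of the 5′ end and within the 5′ UTR, in an interval from 7534359 to 7534708. Replicate 1 gave a signal of 37.6 at rank 322 and replicate 2 gave 24.1 at rank 244, with summits 6 and 7 bp further downstream along the gene than the pooled one. Both replicates thus placed the gene in the upper part of their lists and at nearly one position. The centre of its AGATAA site lay 20.5 bp from the pooled summit. The window also belonged to the neighbour ZK1290.13, so the summit was counted for both genes. A weaker pooled summit, 170 bp upstream, had a signal of 6.97, with 11.3 in replicate 2 and no counterpart in replicate 1.

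The gene that follows wrt-10 tail to tail is wrt-1 (WBGene00006947, chromosome II, 7530996 to 7533246, plus strand), which encodes a Wart and Hog protein. No summit lay in its own window in any list. The wrt-10 summit lay 3538 bp downstream of the 5′ end of wrt-1, beyond the end of that gene. Of these 2 neighbours, then, wrt-10 alone had signal in its promoter window.

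wrt-2 (WBGene00006948, chromosome X, 3092395 to 3094349, minus strand), whose promoter is used to mark seam and epidermal cells, had a pooled signal of 46.7 at rank 491. The summit at 3094470 lay 121 bp upstream of the 5′ end, in intergenic sequence, in an interval from 3094295 to 3094644. The signal was 19.5 at rank 1308 in replicate 1 and 19.0 at rank 407 in replicate 2, so the gene stood higher in the order of replicate 2. The replicate summits lay 98 and 165 bp upstream of the 5′ end. Its AGATAA site was centred 35.5 bp from the pooled summit.

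grl-10 (WBGene00001719, chromosome V, 7774545 to 7775759, plus strand), a gene of the ground-like subfamily, had a pooled signal of 51.6 at rank 398. Its summit at 7774305 lay 240 bp upstream in intergenic sequence, in an interval from 7774130 to 7774479. Replicate 1 gave 32.7 at rank 437 with the summit at the same base, and replicate 2 gave 13.2 at rank 906 with a shift of -37 bp along the gene. Within 100 bp of the summit no site of the 4 GATA forms was found, which made it the single IDR summit of the 4 without one.

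grl-7 (WBGene00001716, chromosome V, 11344828 to 11347012, minus strand) lay closest to the lower limit of the IDR list, with a pooled signal of 30.7 at rank 1173. Its summit at 11347957 lay 945 bp upstream of the 5′ end, near the far edge of the window, in an interval from 11347782 to 11348131. The signal was 16.3 at rank 1798 in replicate 1 and 16.0 at rank 610 in replicate 2. Of the 4 genes it was thus the weakest in the pool and in replicate 1, and the one whose call rested on the length of the window. It had 3 GATA sites within 100 bp, 2 of them AGATAA, with the nearest centred 27.5 bp away. A stronger IDR summit, with a signal of 57.1 at rank 321, lay 2679 bp downstream of the 5′ end of grl-7, in the annotated 3′ UTR of T02E9.5.

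**Figure D2:**
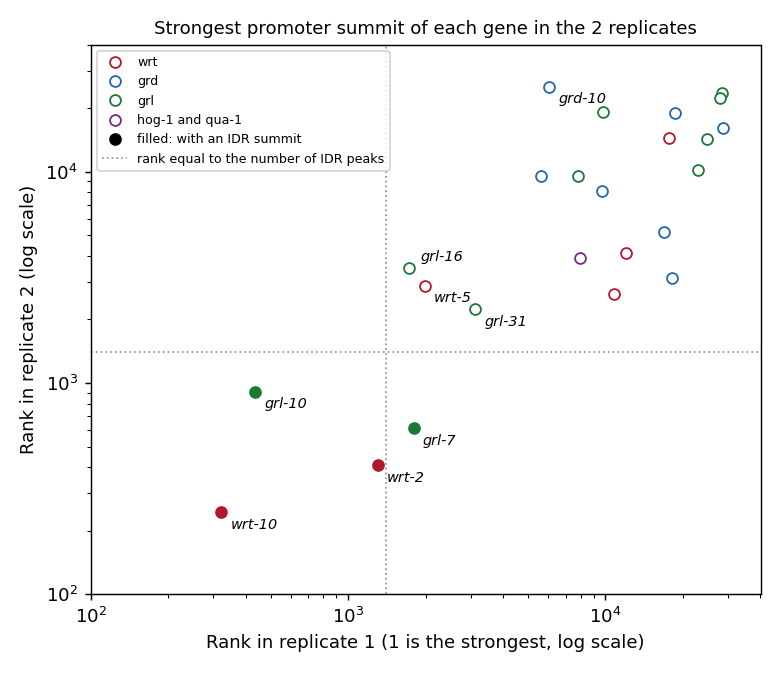
Rank of each gene's strongest promoter summit in the relaxed list of replicate 1 (horizontal) and replicate 2 (vertical), both on log axes with 1 the strongest, for the 24 hedgehog-related genes with a summit in both; dotted lines mark rank 1400. The filled IDR genes wrt-10, grl-10 and wrt-2 lie below both lines, grl-7 lies beyond the line in replicate 1 at rank 1798, and no open point lies below either line.

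The wrt subfamily, the Wart proteins, had the most widespread weaker signal. A pooled relaxed summit lay in the windows of 7 of 10 wrt genes (70%), 7 of 16 grd genes (43.8%), 14 of 31 grl genes (45.2%) and both hog-1 and qua-1, in all 30 of 59 (50.8%). Other genes had one in 42.3% of cases, so the relaxed list by itself set the grd and grl genes hardly apart from the background. Among the 5000 strongest pooled peaks the count was 11 of 59 (18.6%), of which 4 were wrt, 1 was grd, 5 were grl and 1 was hog-1, against 12.4% of other genes. The wrt counts in the pooled list include wrt-2 and wrt-10, which also had IDR summits. Within 100 bp of the strongest pooled summit, wrt-2, wrt-8 and wrt-10 had a GATA site, and wrt-3, wrt-5, wrt-6 and wrt-7 had none. Of pooled summits in windows of other genes, 41.5% had one.

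Both replicates were next required to show a summit, in counts chosen after the data were seen and compared without a test. A summit in the window in both replicates was found for 24 of 59 hedgehog-related genes (40.7%), against 22.7% of other genes, with 6 of 10 wrt, 7 of 16 grd, 10 of 31 grl and hog-1. When the summits of the 2 replicates had to lie within 100 bp of each other, 14 of 59 remained (23.7%), against 11.4% of other genes. These were 6 of 10 wrt genes (60%), 0 of 16 grd genes, 7 of 31 grl genes (22.6%) and hog-1. The 0 for grd depended on the distance, since within 200 bp the counts were 6 of 10 wrt genes, 4 of 16 grd genes (25%), 9 of 31 grl genes (29%) and hog-1, 20 of 59 in all (33.9%), against 15.1% of other genes. The 6 wrt genes were wrt-2, wrt-3, wrt-5, wrt-6, wrt-8 and wrt-10. At both distances the wrt share was the highest of the 3 subfamilies, with 10 genes behind it.

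**Figure D3:**
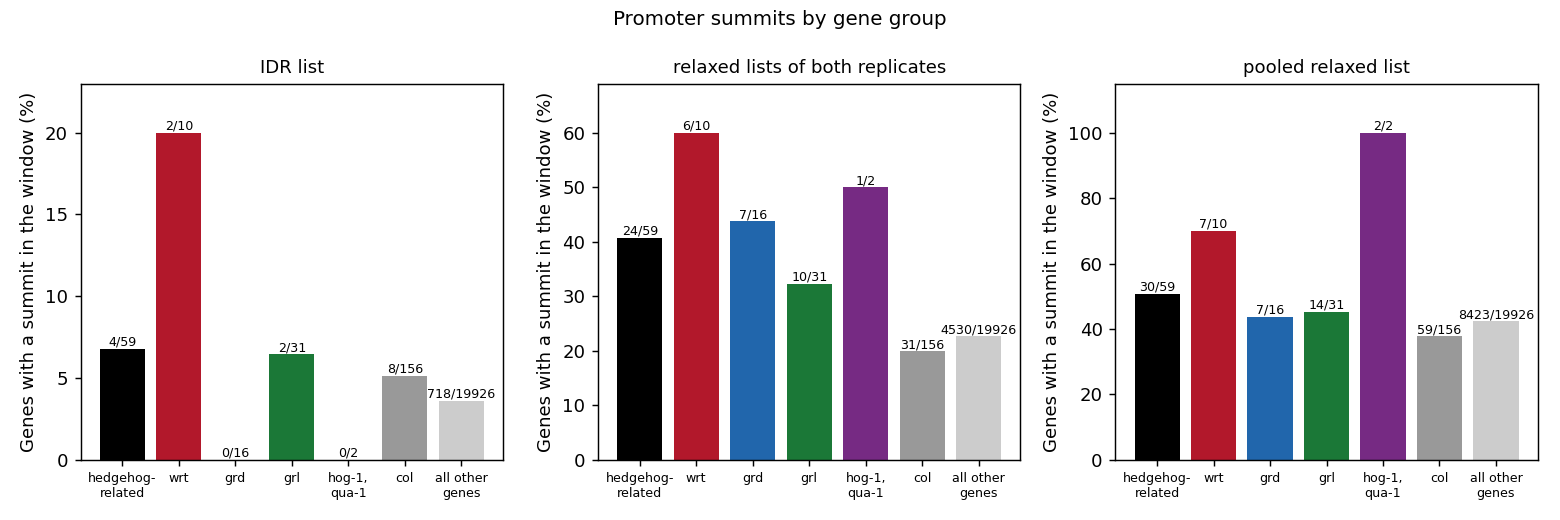
Percentage of genes with a summit in the promoter window, with counts above the bars, in the IDR list, in the relaxed lists of both replicates, and in the pooled relaxed list, for hedgehog-related genes, their subfamilies, numbered col genes and all other protein-coding genes. The wrt bars stand at 20%, 60% and 70%, against 3.6%, 22.7% and 42.3% in all other genes.

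Below the IDR list the strongest wrt gene was wrt-5 (WBGene00006951, chromosome IV, 4050006 to 4051639), which is required in embryonic morphogenesis. Its pooled summit, 836 bp upstream, had a signal of 23.6 at rank 1839, with 15.4 at rank 1982 in replicate 1 and 7.62 at rank 2875 in replicate 2. It fell short of the lowest IDR signal of 27.8. wrt-3 had 16.2 at rank 3528, 225 bp upstream and within an intron of the neighbour cng-3, with 6.57 in replicate 1 and 7.89 in replicate 2. For wrt-7 the pooled signal was 13.4 at rank 5186, with 4.39 in replicate 2 and no summit in replicate 1. So the pooled signal of wrt-5 and wrt-3 was seen in both replicates and that of wrt-7 in 1 of them.

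wrt-6 (WBGene00006952, chromosome X, 3480250 to 3483666, plus strand), which encodes a Wart and Hog protein, carried IDR summits inside the gene and not in its window. In its promoter window the pooled signal was 11.6, 652 bp upstream, with 6.21 in replicate 1 and 6.47 in replicate 2. An IDR summit at 3483001 in the coding sequence, 2751 bp from the 5′ end, had a signal of 58.2 at rank 303, with 30.9 in replicate 1 and 23.7 in replicate 2. A second IDR summit at 3481131 in an intron, 881 bp from the 5′ end, had 36.7 at rank 834, with 19.9 in replicate 1 and 13.3 in replicate 2. Both gene-body summits were thus stronger than the promoter summit in the pool and in each replicate. An AGATAA site was centred 19.5 bp from the intronic summit, and a site of another form lay 48.5 bp from the coding one.

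The remaining wrt genes were weaker. wrt-8 had a pooled signal of 8.51, with 4.92 in replicate 1 and 3.38 in replicate 2. wrt-4 and wrt-9, like wrt-1, had no summit in the window in any list.

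None of the 16 grd genes, the Ground domain subfamily, had an IDR summit in its window. At the share of 3.6% in other genes, 0 of 16 does not set the grd genes apart. The highest was grd-10 (WBGene00001699, chromosome IV, 3441055 to 3441841), whose promoter is used as a seam cell marker, with a pooled signal of 19.9 at rank 2448, 14 bp upstream of the 5′ end. Replicate 1 gave 8.84 at rank 6045, 20 bp upstream, whereas the only summit of replicate 2 in the window, with 2.08 at rank 25324, lay 871 bp upstream. The promoter summit of grd-10 was therefore matched in position in 1 of the 2 replicates. grd-10 is the last of 3 neighbours in a row on chromosome IV, and the other 2, grd-13 and grd-3, had no pooled summit in their windows.

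grd-5 had a pooled signal of 13.5, 323 bp upstream, with 6.97 in replicate 1 and 4.69 in replicate 2. grd-6 had 12.1, 67 bp upstream, with 5.04 in replicate 1 and 5.84 in replicate 2, and these replicate summits lay 59 and 160 bp upstream. For 4 further genes, grd-1, grd-7, grd-12 and grd-11, the pooled signal lay between 5.29 and 8.95, and the summit of grd-1 lay in the coding sequence of the neighbour clc-17. The neighbours grd-4 and grd-14 on chromosome X had no summit in any list.

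In the grl subfamily, the 2 called genes were followed by grl-16, grl-31 and grl-1. grl-16 had a pooled signal of 23.3 at rank 1884, 110 bp upstream, with 16.7 at rank 1730 in replicate 1 and 6.96 at rank 3496 in replicate 2. grl-31, one of a group of grl genes on chromosome V, had 21.1 at rank 2228, 614 bp upstream, with 12.1 at rank 3120 in replicate 1 and 8.50 at rank 2230 in replicate 2. Both lay below the IDR limit, with summits of the 2 replicates near each other. grl-1 had 14.3 at rank 4564, 151 bp upstream, with 7.81 in replicate 1 and 4.34 in replicate 2.

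The remaining 9 grl genes with a pooled summit had signals of 5.80 to 12.7. The highest of them, grl-5, had its summit 93 bp inside its own coding sequence, with a counterpart of 8.69 in replicate 2 and none in replicate 1. grl-29 and grl-30, neighbours of grl-31, shared a single summit of 5.80. grl-2, a gene of the excretory duct and pore, had no summit in any list, and grl-18, a gene of glia, had 3.40 in replicate 1 and 2.37 in replicate 2 with none in the pool.

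hog-1, which has a Hog domain without a Wart or Ground domain, had 3 pooled summits in its windows. The strongest had a signal of 15.1 at rank 4056, 9 bp downstream of a 5′ end in the 5′ UTR, and the others had 10.6 and 7.03. Near the strongest, the signal was 7.73 in replicate 1 and 4.12 in replicate 2. The highest signal of replicate 2 in the windows, 6.61, lay near the pooled summit of 7.03. qua-1, which is needed for moulting and normal cuticle, had 7.47 at rank 16502, with 3.67 in replicate 1 and no summit in replicate 2. In a list of the 10 Hog-domain genes written after the values were seen, 0 had an IDR summit, against 3.6% of other genes, and 7 had a pooled one, against 42.3%. At a share of 3.6%, 0 of 10 genes says nothing particular about the Hog-domain genes.

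Of the 59 genes, 17 had no summit in the window in the pool or either replicate, namely 3 wrt, 5 grd and 9 grl genes. A further 12 had one in a replicate list without one in the pool. These 2 counts were not made for other genes, so they do not place the family above or below them. List by list, a summit was found in the pool for 50.8% of hedgehog-related genes and 42.3% of other genes. The shares were 57.6% and 42.2% in replicate 1, and 50.8% and 37.8% in replicate 2. In bulk embryos, binding in few cells and weaker binding in many cells cannot be told apart, so a missing summit says only that none was listed for these mixed embryos.

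Across the family, 35 distinct pooled summits lay in the windows, and 5 genes had more than 1. Of 36 pairs of a gene and a summit, 22 lay within 300 bp of the nearest 5′ end and 30 lay upstream of it. The 7 pooled grd summits lay between 323 and 14 bp upstream, whereas pooled summits of wrt and grl genes spread over most of the window. In single replicates grd summits also lay far upstream, at 740 bp for grd-3 and 1000 bp for grd-7 in replicate 1, and at 871 bp for grd-10 and 999 bp for grd-16 in replicate 2. The rule on distance limits these positions to the window, so they describe spread within it. As the window reaches 1000 bp upstream and 200 bp downstream, most of it lies upstream. Positions were not counted for other genes, so they are not shown to be particular to the family.

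**Figure D4:**
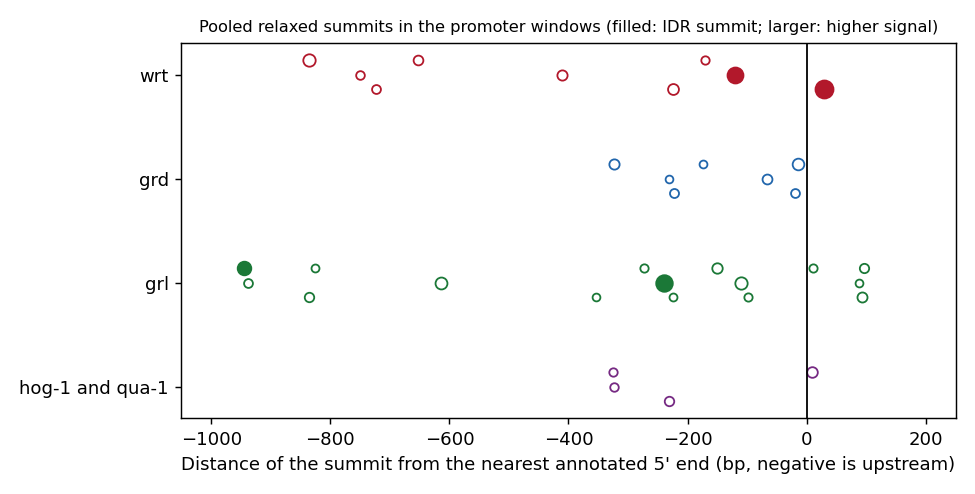
Distance of each pooled relaxed summit from the nearest annotated 5′ end (horizontal, bp, negative upstream) by subfamily, with filled points for IDR summits and larger points for higher signal. The IDR summits lie at 945 and 240 bp upstream in grl genes and at 121 bp upstream and 29 bp downstream in wrt genes, and the pooled grd summits all lie within 323 bp upstream.

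IDR summits also lay near genes of the family outside the windows, at a distance chosen after the data were seen. Within 5000 bp of a 5′ end, in the window or outside it, 11 of 59 hedgehog-related genes had an IDR summit (18.6%). The share in other genes, counted in the same way, was 11.8%. The 11 were 4 wrt, 2 grd and 5 grl genes. They include the 4 genes with an IDR summit in the window, and wrt-1, which was reached only by the wrt-10 summit. The summits of wrt-6 and grl-15 lay inside the genes themselves. In grl-15 (WBGene00001724, chromosome III, 12232632 to 12236014, minus strand) the summit at 12234178 lay in an intron, 1836 bp from the 5′ end, with a signal of 28.0 at rank 1391, 15.1 in replicate 1 and 17.2 in replicate 2. Its 2 AGATAA sites included one centred 4.5 bp from the summit. This summit stood near the end of the IDR list, and in the window of grl-15 only replicate 1 had a summit, with 3.73.

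The other nearby summits lay outside the genes. For grl-13 the summit was 2909 bp downstream of the 5′ end, with 50.7 at rank 415, in the window of F32D1.3. For grd-7 it was 4297 bp downstream, with 34.3 at rank 945, in the window of F46H5.2. These 2 summits therefore counted as promoter summits of other genes. For grl-8 the summit lay 3954 bp upstream with 44.0 at rank 560, and for grd-6 it lay 3493 bp upstream with 29.1 at rank 1308, both intergenic and in no promoter window. The grd-6 and grd-7 summits had no GATA site within 100 bp.

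GATA sites were common in the promoters of the family and of other genes alike. In windows of 1201 bp at the gene's 5′ end, 54 of 59 hedgehog-related genes (91.5%) held at least 1 of the 4 forms, against 93.3% of 19913 other nuclear genes, with a median of 3 sites in each set. AGATAA itself was found in 37 of 59 windows (62.7%), against 55.7% in the other genes. By subfamily, 7 of 10 wrt, 15 of 16 grd and 30 of 31 grl windows held a site of any form. The windows without one were those of wrt-3, wrt-5, wrt-6, grd-14 and grl-27. For AGATAA alone the subfamilies were alike in share, with 60% of wrt, 62.5% of grd and 61.3% of grl windows.

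Within 100 bp of a summit the sets differed more in AGATAA than in sites of any form. Of the 4 IDR summits in hedgehog-related windows 3 had a site (75%), against 59.1% of 616 IDR summits in windows of other genes. AGATAA was present at the same 3 (75%), against 36.7% of the other summits. Around pooled summits, 16 of 35 in hedgehog-related windows had a site of any form (45.7%), against 41.5% of 9791 others, and 11 of 35 had AGATAA (31.4%), against 16.9%. The difference in share was thus larger for AGATAA alone than for the 4 forms together, in counts of 4 and 35 summits. The 4 IDR summits are also among the 35 pooled ones, so these counts are not independent. No test was made.

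**Figure D5:**
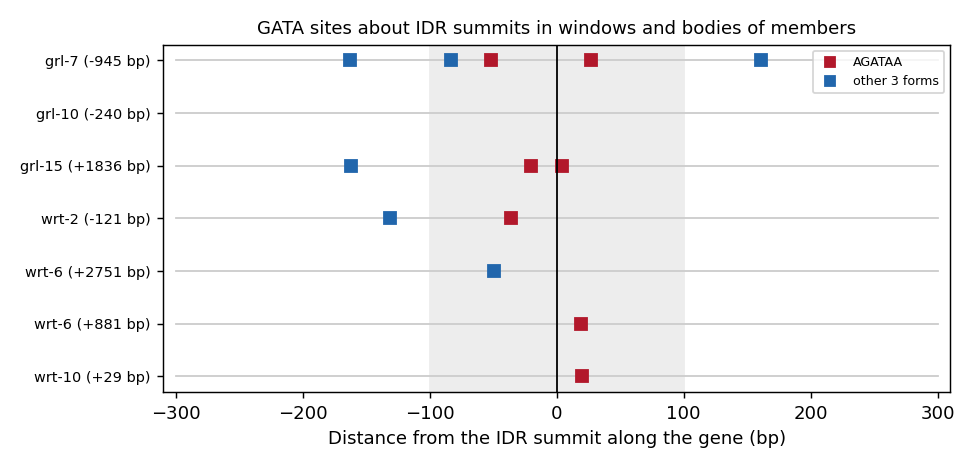
Position of GATA sites (squares; AGATAA in red, the other 3 forms in blue) relative to 7 IDR summits in windows or bodies of hedgehog-related genes, in bp along the gene, with the 100 bp to each side shaded. An AGATAA site lies in the shaded range at wrt-10, wrt-2, grl-7, grl-15 and the intronic summit of wrt-6, and no site is drawn at grl-10.

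The family also has features of gene layout that the choice of genes did not use. A single annotated 5′ end was found for 51 of 59 hedgehog-related genes (86.4%), against 72.5% of 19914 other nuclear protein-coding genes, so fewer of them had several windows in which a summit could be counted. The median distance to the upstream neighbour was 1078 bp, against 936 bp. On chromosome V lay 28 of the 59 genes (47.5%), against 24.9% of other nuclear protein-coding genes.

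The patched-related genes, taken to be the receptor side of this family, were counted with the same windows. Of 26 ptc and ptr genes 4 had an IDR summit (15.4%), and these were the only ones in a list of 35 genes that also held sterol-sensing, acyltransferase, megalin and Gli homologues (11.4%). The share over all genes outside the hedgehog-related family was 3.6%, and the difference was not tested. The list was chosen with earlier results of these data known. ptr-18 had a signal of 81.2 at rank 142, with 50.9 in replicate 1 and 30.9 in replicate 2, which was above every hedgehog-related gene. ptr-15 had 60.3 at rank 271 and ptr-4 had 59.3 at rank 282, both between wrt-10 and grl-10 in signal. ptr-2 had 33.3 at rank 1005, close to grl-7. ptc-1 and ptc-3, the Patched homologues, and tra-1, the Gli homologue, had no summit in their windows in any list. In the pooled relaxed list 14 of the 35 genes had a summit (40%), a share close to the 42.3% of genes outside the family. For the 26 ptc and ptr genes the pooled share was 38.5%.

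Numbered col genes, which encode cuticle collagens, gave another comparison within the epidermal products. Of 156 col genes 8 had an IDR summit (5.13%), 59 had a pooled one (37.8%) and 31 had one in both replicates (19.9%). The shares over all genes outside the hedgehog-related family were 3.6%, 42.3% and 22.7%. The col genes thus lay above that share in the IDR list and below it in the pool and in both replicates. For the hedgehog-related genes the same shares were 6.78% (4 of 59 genes), 50.8% and 40.7%.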

How the data were processed

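ChIP-seq of ELT-1 fused to GFP was made in mixed-stage embryos, with 1 group of 2 replicates from separate biological samples, per the labels. The deposited ce11 peak lists were used: the authors called a relaxed list from each replicate and from the pool against a shared control set, and thresholded an IDR list from these, per the file lists in the records. For the aligner, the peak caller and the IDR threshold, names and settings are not given in the sources used here. Signal is the value deposited for each peak, and it was ranked only within a list. Signals of the IDR and pooled lists were also set side by side. Hedgehog-related genes with an IDR summit in the window had the same value in both lists. No ranking used the −log10 q-values that the authors deposited. Because read depth was unknown, it gave no estimate of precision. Lists on ce10 were not used.

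Summits were set against 29796 transcript 5′ ends of the Ensembl release 115 annotation of WBcel235, and sequence was read from the RefSeq copy of that assembly. A summit could count for more than 1 gene. Mitochondrial genes were left out of site counts. Shares stand beside those of all other protein-coding genes with no test, since there is 1 group. The members and lists were chosen with earlier results of these data known. Genes named were those with an IDR summit in the window, the 3 others of each subfamily with the highest pooled signal, hog-1 and qua-1, those with an IDR summit within 5000 bp, and pathway genes with an IDR summit in the window. Others named were chosen after their values were seen. Counting was tested on simulated data. Alternatives covered the window, overlap, 5′ ends, gene assignment, peak threshold, motif and left-out replicates. Python 3.11.15, numpy 2.4.6 and matplotlib 3.10.9 were used.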

Additional observations from a re-analysis of the deposited data

How the results depend on the processing

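With a replicate left out, the 1400 strongest relaxed peaks of the other took the place of the IDR list. Under all alternatives run for called summits, 0 grd genes and neither hog-1 nor qua-1 had one. With 16 and 2 genes, these counts do not set either group apart from other genes. The family's 4 genes became 3 (5.08%) with a window of 500 bp upstream and 100 bp downstream, against 2.53% of other genes. With the strongest 50% of IDR peaks they also became 3 (5.08%), against 1.74%. In a window of 2000 bp upstream and 200 bp downstream they stayed 4 (6.78%), while other genes rose from 3.6% to 5.1%. They became 6 (10.2%, against 4.49% of other genes) when each summit went to the nearest 5′ end within 2000 bp. This assignment added wrt-6 and grl-15. The 2 grl genes became 1 in the shorter window and 1 with the strongest 50% of peaks, grl-7 being lost in both. Leaving out each replicate gave 3 to 4 genes of the family and 1 to 2 grl genes, with grl-7 lost without replicate 2. Other genes stood at 3.5% without replicate 1 and 3.58% without replicate 2. The 30 genes with a pooled summit became 11 (18.6%, against 12.4% of other genes) when only the 5000 strongest peaks were used. The full relaxed list of the other replicate gave 30 (50.8%, against 37.8%) without replicate 1. Without replicate 2 it gave 34 (57.6%, against 42.2%). The share of windows with a GATA site was 91.5% with the 4 forms and 62.7% with AGATAA alone. The share of pooled summits with a site was 45.7% and became 31.4% with AGATAA alone, or with 50 bp to each side in place of 100 bp. No paired analysis was possible because there is 1 group. Counts over both replicates and within 5000 bp were added after the data were seen. Since depth was unknown, the smallest signal that could have been found could not be given.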
